A study of Mus musculus with 6 samples.

Results

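Kinesins are motor proteins that walk along microtubules, and their transcripts were followed here in mouse embryonic fibroblasts (MEFs) with and without Rnf40. The members were every gene of the deposited table whose symbol is Kif or Kifc followed by a number and, where present, a letter, which gave 42 of 29955 genes. By known role, 14 were placed with the mitotic kinesins, 15 with the cargo-transport kinesins and 13 with the other kinesins, which serve cilia, signalling or microtubule dynamics or are little known. Rnf40 encodes a ubiquitin ligase that monoubiquitinates histone H2B, and the comparison asked how the loss of this enzyme changed gene expression. RNA-seq was made of 3 libraries of Rnf40+/+ and 3 libraries of Rnf40-/- primary MEFs at passage 3. In the Rnf40-/- cells, exons 3 and 4 of Rnf40, flanked by loxP sites, had been deleted by the tamoxifen-inducible Rosa26-CreERT2, with 250 nM 4-hydroxytamoxifen (4-OHT) for 5 days and 3 further days without it. The study derived its MEFs from embryos homozygous for the loxP allele that carried the CreERT2. Whether the Rnf40+/+ libraries came from cells that received 4-OHT is not given in the sources used here, so the deletion and the treatment cannot be told apart. They also do not say whether the 3 libraries of a genotype came from separate embryos or cultures, so the p-values measure the spread between these libraries, which may be technical.

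A kinesin motor domain turns ATP hydrolysis into steps along a microtubule. Mitotic kinesins separate spindle poles, align chromosomes, trim microtubule ends and build the midzone on which a cell divides, and many of them are transcribed mainly in G2 and M phase. Transport kinesins carry vesicles, mitochondria, lysosomes and ciliary cargo in cells that divide and in cells that do not. Several of them, such as Kif1a, Kif5a and Kif5c, are best known from neurons, while Kif5b serves most tissues.

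The libraries held between 17053436 and 26344170 reads on genes. A deposited value, called a normalized count here, is the number of reads of a gene divided by 1 size factor of its library, and 3 reads correspond to between 2.40 and 3.58 normalized counts. Rnf40 had 1278, 1195 and 1096 normalized counts across Rnf40+/+ replicates 1 to 3, against 439, 519 and 487 across Rnf40-/-, a log2 fold change of -1.30 ± 0.09 (SE, adjusted p = 4.25e-07, limma). Its counts cover the whole gene, so a transcript that lacks exons 3 and 4 would still be counted. Of the 16378 genes that were tested with limma, the median log2 fold change (Rnf40-/- minus Rnf40+/+) was -0.0035 and the middle 50% lay between -0.35 and 0.32. All 10 fibroblast markers were detected, with summed normalized counts of 446969 to 515902 in Rnf40+/+ and 261185 to 271224 in Rnf40-/-, and 7 of the 10 were lower in Rnf40-/-, beside 24.1% of all tested genes. Markers of other cells were present as well. The summed level of 10 macrophage markers was 5769 to 9857 in Rnf40+/+ and 3699 to 4103 in Rnf40-/-, and of the 9 tested 3 were lower, among them Lyz2, which makes up most of the sum, 2 were higher (Ptprc, 1.37, and Cd14, 0.66, log2) and 4 were not called. The summed level of 7 skeletal muscle markers was 1719 to 5824 and 437 to 499, although Myod1 had no read. Most of this sum was Acta1 in every library (4449, 1905 and 1592 in Rnf40+/+, 453, 409 and 440 in Rnf40-/-). Des had 114 to 431 normalized counts in Rnf40+/+ and 27.1 to 42.5 in Rnf40-/-. Actc1 had 937 in Rnf40+/+ replicate 1 and at most 10.2 elsewhere. Myog, Ckm and Myh3 lay between 0 and 7.14 normalized counts in every library. The sums of 8 neuronal markers (2201 to 3614 and 2157 to 2400), 7 epithelial markers (439 to 794 and 611 to 820) and 7 endothelial markers (147 to 282 and 234 to 333) overlapped between the genotypes. Krt19 made up most of the epithelial sum in every library. Within the endothelial list the members moved apart, since Cdh5 (3.26, log2), Pecam1 (2.58) and Kdr (1.56) were higher in Rnf40-/- without overlap, and Emcn (-1.15) was lower. Cdh5 rose from a mean of 2.76 to 31.6 normalized counts and Pecam1 from 3.75 to 27.6. Rnf40+/+ replicate 1 stood apart, with the highest sum of the muscle and of the neuronal markers, so results are also given without it where they moved. Rnf40+/+ replicate 3 stood apart as well. It had the highest macrophage sum (9857) and the highest epithelial sum of the Rnf40+/+ libraries (794), and Kif13b, Kif18a and Kif26b are also given without it. Whether such other cells were present, and their part in the differences below, was not tested.

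Promoters of kinesin genes whose transcripts moved together, and of others that did not move with them, are shown first. RefSeq promoters were matched for 33 of the 42 members. Motifs known from cell-cycle promoters were searched on both strands in the 250 bases before each start site, namely the CHR (TTTGAA or TTCGAA), the CCAAT box (CCAAT) and an E2F motif (TTCCCGC or TTGGCGC), of which ATTGG, the reverse of CCAAT, and TTGGCGC can share letters. Below are the last 100 bases before the start site for Kif11, Kif15, Kif22 and Kif18b, which fell in Rnf40-/-, for Kif18a, the mitotic kinesin that was not called, and for Kif24, a kinesin of centrioles that was not called although its promoter holds both a CHR and a CCAAT box. Capitals mark every CHR or CCAAT match on either strand, and each sequence reads 5′ to 3′ on the strand of its gene (RefSeq, GRCm38.p6).
Kif11: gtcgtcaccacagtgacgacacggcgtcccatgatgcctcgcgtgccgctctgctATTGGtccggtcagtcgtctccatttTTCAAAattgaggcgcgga
Kif15: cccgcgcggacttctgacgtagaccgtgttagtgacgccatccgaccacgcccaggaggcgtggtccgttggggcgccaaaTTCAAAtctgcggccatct
Kif22: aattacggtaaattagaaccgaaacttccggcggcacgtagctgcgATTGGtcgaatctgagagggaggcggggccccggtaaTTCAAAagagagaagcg
Kif18b: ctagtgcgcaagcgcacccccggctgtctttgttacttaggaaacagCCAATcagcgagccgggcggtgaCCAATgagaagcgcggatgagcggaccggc
Kif18a: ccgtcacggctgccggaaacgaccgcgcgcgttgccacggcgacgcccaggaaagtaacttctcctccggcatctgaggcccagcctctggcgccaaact
Kif24: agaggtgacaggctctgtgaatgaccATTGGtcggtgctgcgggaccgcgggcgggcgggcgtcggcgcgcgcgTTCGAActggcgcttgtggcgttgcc

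The stretch of Kif11 lies at chr19:37376282-37376381 (plus strand), that of Kif15 lies at chr9:122950981-122951080 (plus strand), that of Kif22 lies at chr7:127042421-127042520 (minus strand), that of Kif18b lies at chr11:102925125-102925224 (minus strand), that of Kif18a lies at chr2:109280638-109280737 (plus strand) and that of Kif24 lies at chr4:41464849-41464948 (minus strand). Counted from the start site, the nearest CHR began at position -19 in Kif11, -19 in Kif15, -17 in Kif22 and -26 in Kif24. The nearest CCAAT box began at -45 in Kif11, -54 in Kif22, -30 in Kif18b and -74 in Kif24. Kif18a held neither a CHR nor a CCAAT box in the 250 bases, but had an E2F motif at -10, as did Kif15 at -27. Kif20b, which fell, held none of the searched motifs in its 250 bases, so their absence was not particular to Kif18a. Of 13 mitotic kinesins with a promoter used here, 5 held a CHR, 9 a CCAAT box and 3 both. Among 10 cargo-transport kinesins these counts were 1, 3 and 0, and among 10 other kinesins they were 3, 4 and 3. Of all 32851 promoters in the same table, 17.15% held a CHR, 33.85% a CCAAT box, 5.616% an E2F motif and 6.021% both a CHR and a CCAAT box. The 3 other kinesins with both were Kif24, Kif26b and Kif27. The 250 bases of Kif14, Kif2c and Kif27, and of another start of Kif1a, end in AG, as an intron does. Whether these starts lie at an internal exon was not tested. These stretches hold the CHRs of Kif14, Kif2c and Kif27 and the only CHR of the cargo-transport class. Kif14 and Kif27 are among the members with both motifs. The 13 mitotic kinesins include Kif2b, which had no read and held a CCAAT box. A match describes the letters only.

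Nearly all mitotic kinesins that could be tested were lower in Rnf40-/- MEFs. Of the 13 tested, 12 fell and none rose, beside 24.1% of all tested genes called lower and 23.3% called higher (limma, Benjamini-Hochberg adjusted p under 0.05 over all 16378 genes). The share that fell depends on the placement of Kif2a, a depolymerase related to Kif2c that also acts outside mitosis. Kif2a was placed with the other kinesins and was not called (log2 fold change 0.006, adjusted p = 0.957, limma). The median log2 fold change of the 13 was -1.97, with a range from -3.41 to 0.18. The 12 that fell kept between 9.11% and 57.5% of their mean Rnf40+/+ level, with a median of 24.5%, and in each of them the highest Rnf40-/- library lay below the lowest Rnf40+/+ library. The remaining tested member was Kif18a, and Kif2b, a microtubule depolymerase close to Kif2c, had no read in any library, which leaves it under the limit of 3 reads. Over all 42 members, 37 were tested, of which 16 were lower, 7 higher and 14 not called.

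**Figure D1:**
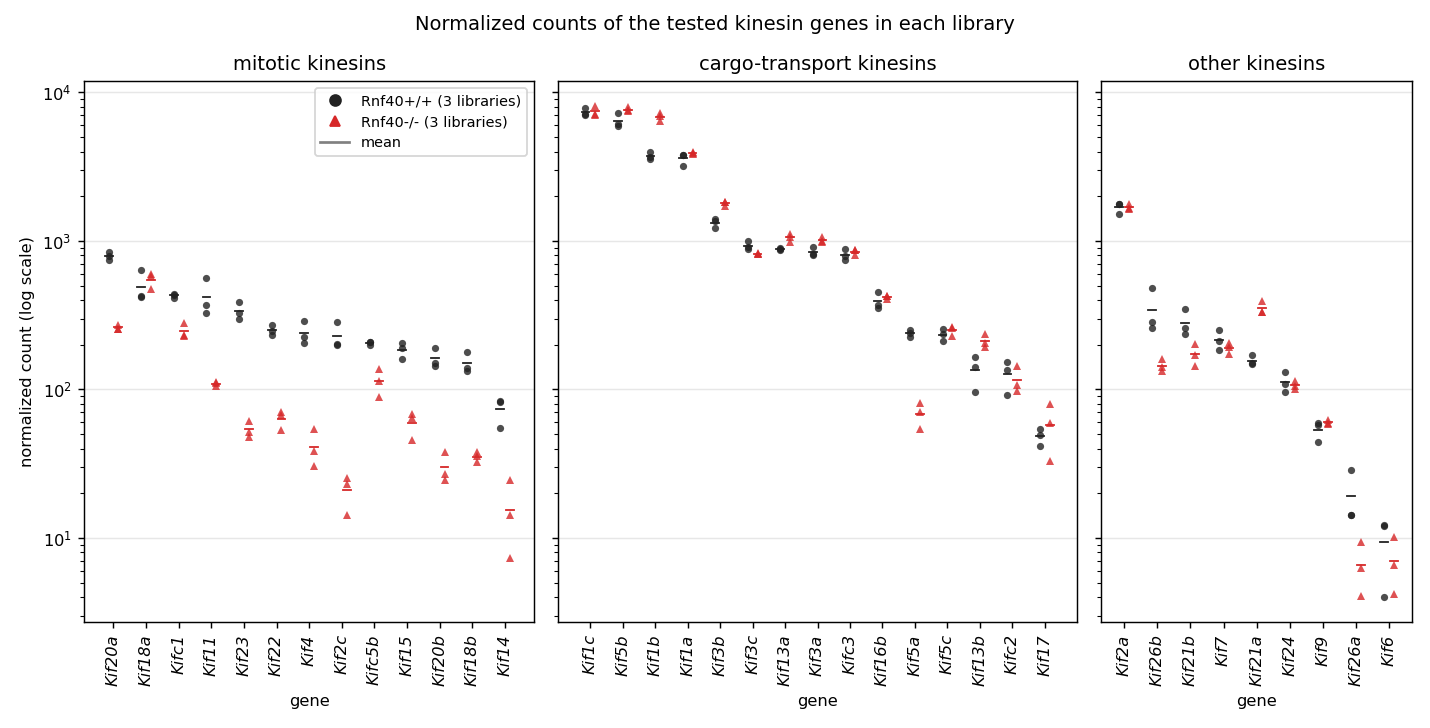
Normalized count of each tested kinesin gene in each library on a log axis, by class, with Rnf40+/+ as black circles, Rnf40-/- as red triangles and a line at each mean. In 12 of the 13 mitotic kinesins the triangles lie below all circles, while most cargo-transport kinesins overlap or lie slightly higher in Rnf40-/-.

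The motors that set up the bipolar spindle were among those that fell. Kif11, the kinesin-5 that slides antiparallel microtubules to push spindle poles apart (mm9, chromosome 19, 37450893 to 37496349, plus strand), had 565, 327 and 371 normalized counts across Rnf40+/+ replicates 1 to 3, against 106, 112 and 110.5 across Rnf40-/-. The log2 fold change was -1.89 ± 0.18 (SE, adjusted p = 4.54e-06, limma). The Rnf40+/+ libraries were uneven for this gene, with replicate 1 well above the other two, and without it the log2 fold change was -1.66. Kif15, a kinesin-12 that can take over part of the work of Kif11, had 207, 189 and 161 normalized counts across Rnf40+/+ replicates 1 to 3, against 64.2, 67.8 and 45.3 across Rnf40-/-. This gave a log2 fold change of -1.65 ± 0.19 (SE), with an adjusted p of 2.50e-05 (limma). The groups did not overlap for either gene.

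Kifc1 and Kifc5b are minus-end directed kinesin-14 genes, of which Kifc1 bundles microtubules and focuses spindle poles. Kifc1 had 439, 414 and 435 normalized counts across Rnf40+/+ replicates 1 to 3, against 227, 282 and 231 across Rnf40-/-. Its fold change was -0.80 ± 0.11 (SE) on the log2 scale (adjusted p = 9.51e-05, limma). Kifc5b had 208, 209 and 199.6 normalized counts across Rnf40+/+ replicates 1 to 3, against 88.7, 137 and 114 across Rnf40-/-. On the log2 scale the difference was -0.88 ± 0.16 (SE), adjusted p = 0.000925 (limma). These were the smallest falls among the 12. The longest coding transcripts of Kifc1 and Kifc5b are 96.4% identical over 2342 aligned bases, so how the reads were split between the pair is uncertain and they may not be separate observations.

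Of the kinesins that act on microtubule ends, one fell most of all members and one was not called. Kif2c, also known as MCAK, a kinesin-13 that depolymerizes microtubules at centromeres and helps to correct wrong attachments (mm9, chromosome 4, 116832244 to 116855244, minus strand), had 285, 202 and 199.6 normalized counts across Rnf40+/+ replicates 1 to 3, against 25.5, 23.0 and 14.2 across Rnf40-/-. The change came to -3.41 ± 0.25 (SE) on the log2 scale with an adjusted p of 6.48e-07 (limma). Only 9.11% of the mean Rnf40+/+ level was left. Kif18b, a kinesin-8 that works with Kif2c on astral microtubules, had 179, 133 and 139 normalized counts across Rnf40+/+ replicates 1 to 3, against 32.6, 35.5 and 37.8 across Rnf40-/-. The log2 fold change was -2.05 ± 0.19 (SE, adjusted p = 4.69e-06, limma). The libraries of each genotype lay close together and far from those of the other genotype.

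Kif18a, the kinesin-8 that dampens the movements of chromosomes at the metaphase plate, had 424, 418 and 635 normalized counts across Rnf40+/+ replicates 1 to 3, against 475, 595 and 577 across Rnf40-/-. The groups overlapped. The log2 fold change was 0.18 ± 0.15 (SE) with a 95% interval of -0.15 to 0.51 and an adjusted p of 0.359 (limma). That interval overlapped none of those of the 12 mitotic kinesins that fell, whose upper bounds were at most -0.52. Rnf40+/+ replicate 3 was the highest of all 6 libraries, and without it the log2 fold change was 0.38 with an adjusted p of 0.0113 (limma), so the absence of a call rests on this library, while no library left out gave a fall. Relative to Kif18b, its nearest relative in the family, the level of Kif18a per kb of the longest coding transcript was 2.34 to 4.51 times as high in Rnf40+/+ and 14.4 to 16.6 times as high in Rnf40-/-. In the mm9 annotation the exons of Kif18a (chromosome 2, 109120895 to 109181904, plus strand) cover 9832 bases, against 3369 in its longest coding transcript, and a count per gene does not show which transcript the reads came from.

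Chromokinesins, which bind chromosome arms and push them towards the spindle equator, fell as well. Kif4, which also helps to compact chromosomes and shape the central spindle, had 289, 224 and 207 normalized counts across Rnf40+/+ replicates 1 to 3, against 38.7, 30.3 and 53.8 across Rnf40-/-. This gave a log2 fold change of -2.55 ± 0.22 (SE), with an adjusted p of 2.59e-06 (limma). Kif22, known as Kid, had 269.9, 234 and 248 normalized counts across Rnf40+/+ replicates 1 to 3, against 53.0, 71.0 and 67.0 across Rnf40-/-. Its fold change was -1.97 ± 0.16 (SE) on the log2 scale (adjusted p = 1.48e-06, limma). Both showed non-overlapping groups. On the opposite strand 15.1% of the exon bases of Kif4 are shared with Pdzd11, which fell by 0.65 on the log2 scale. The setting used to count strands is not given in the sources used here, so reads of such overlapping genes may not have been separated.

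The motors of the midzone and of cytokinesis also fell. Kif23, also named MKLP1, a part of centralspindlin, had 389, 299 and 327 normalized counts across Rnf40+/+ replicates 1 to 3, against 52.0, 61.6 and 48.2 across Rnf40-/-. On the log2 scale the difference was -2.63 ± 0.16 (SE), adjusted p = 1.62e-07 (limma). Kif20a, or MKLP2, which brings the chromosomal passenger complex to the midzone, had 846, 794 and 739 normalized counts across Rnf40+/+ replicates 1 to 3, against 257, 272 and 255 across Rnf40-/-. The change came to -1.60 ± 0.09 (SE) on the log2 scale with an adjusted p of 9.74e-08 (limma). It had the highest level of the mitotic kinesins in Rnf40+/+, both in normalized counts and per kb. In mm9, 32.3% of its exon bases overlap Cdc23 on the opposite strand, which fell by 0.56 on the log2 scale.

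Kif20b, a relative of Kif20a with a role in abscission, had 189.9, 151 and 145 normalized counts across Rnf40+/+ replicates 1 to 3, against 37.7, 27.1 and 24.5 across Rnf40-/-. The log2 fold change was -2.41 ± 0.22 (SE, adjusted p = 3.44e-06, limma). Kif14, which recruits citron kinase to the midbody, was the least abundant tested mitotic kinesin and had 82.4, 55.1 and 83.1 normalized counts across Rnf40+/+ replicates 1 to 3, against 24.5, 7.31 and 14.2 across Rnf40-/-. This gave a log2 fold change of -2.31 ± 0.38 (SE), with an adjusted p of 0.000385 (limma). Its lowest library held 7 reads, and its standard error was the largest of the mitotic kinesins. Again no Rnf40-/- library reached the lowest Rnf40+/+ library.

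Rnf40+/+ replicate 1 was the highest of the 3 Rnf40+/+ libraries in 10 of the 13 mitotic kinesins. Without it, 12 still fell and the median log2 fold change of the 13 was -1.91. The summed normalized count of the mitotic kinesins was 3649 to 4373 in Rnf40+/+ and 1483 to 1721 in Rnf40-/-. In bulk RNA, fewer cells in mitosis and less of these transcripts per cell cannot be told apart.

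**Figure D2:**
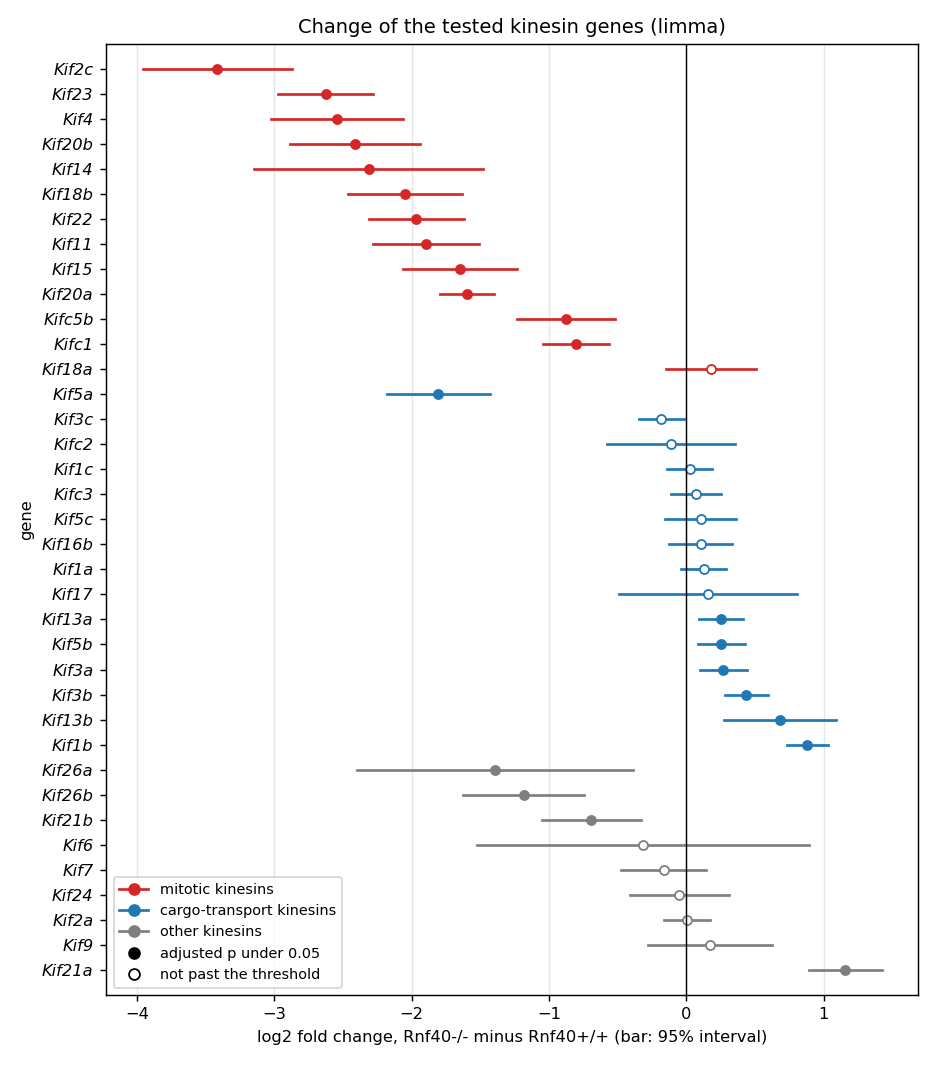
Log2 fold change (Rnf40-/- minus Rnf40+/+, limma) of the 37 tested kinesin genes with its 95% interval, by class, where filled points have an adjusted p under 0.05 and open points do not. The intervals of 12 mitotic kinesins lie wholly below 0, that of Kif18a spans 0, and Kif5a stands apart from the other cargo-transport kinesins.

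Genes that work beside the mitotic kinesins moved in the same direction. Of 20 such genes, which encode spindle assembly factors, kinetochore and checkpoint proteins, the chromosomal passenger complex and cytokinesis factors, all 20 were lower in Rnf40-/- (background 24.1%), with a median log2 fold change of -2.40. The largest falls were in Nusap1, which bundles spindle microtubules (-3.25, adjusted p = 4.15e-06, limma), and Plk1, a kinase of mitotic entry and cytokinesis (-3.12, adjusted p = 2.93e-07, limma). Cenpe, the kinesin-7 that carries chromosomes to the metaphase plate, is a kinesin without a Kif symbol and so no member. It had 215, 219 and 248 normalized counts across Rnf40+/+ replicates 1 to 3, against 40.8, 40.7 and 26.4 across Rnf40-/-, a log2 fold change of -2.65 ± 0.20 (SE, adjusted p = 8.30e-07, limma).

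The cargo-transport kinesins did not follow this pattern. Of the 15 tested, 6 rose, 1 fell and 8 were not called, beside a background of 23.3% higher and 24.1% lower, and their median log2 fold change was 0.13. Their summed normalized count was 26157 to 28943 in Rnf40+/+ and 32477 to 32788 in Rnf40-/-. With 1 exception, the 12 mitotic kinesins that fell and the 15 transport kinesins did not mix in the order of their changes, the exception being Kif5a. The rises were small, from 0.25 to 0.88 on the log2 scale, and none passed the criteria of the study.

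The kinesin-1 heavy chains, which carry mitochondria and vesicles with the light chains, differed among themselves. Kif5b, the widely expressed form, had 6134, 7239 and 5948 normalized counts across Rnf40+/+ replicates 1 to 3, against 7586, 7936 and 7444 across Rnf40-/-. Its fold change was 0.25 ± 0.08 (SE) on the log2 scale (adjusted p = 0.0183, limma). All Rnf40-/- libraries were above all Rnf40+/+ libraries, but the call was lost without Rnf40+/+ replicate 1 (adjusted p = 0.0534, limma), without Rnf40-/- replicate 1 (0.0578) and without Rnf40-/- replicate 2 (0.0795).

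Kif5a (mm9, chromosome 10, 126662755 to 126700136, minus strand) had 225, 253 and 239.6 normalized counts across Rnf40+/+ replicates 1 to 3, against 70.4, 81.4 and 53.8 across Rnf40-/-. On the log2 scale the difference was -1.81 ± 0.17 (SE), adjusted p = 5.08e-06 (limma). It kept 28.7% of its Rnf40+/+ level, with no overlap between the groups, and was the one cargo-transport kinesin to fall. Kif5c was not called, with a log2 fold change of 0.10 and a 95% interval of -0.15 to 0.36. Per kb, the level of Kif5a relative to Kif5c was 1.08 to 1.29 in the Rnf40+/+ libraries and 0.236 to 0.402 in the Rnf40-/- libraries. The longest coding transcripts of Kif5a and Kif5c are 73.3% identical over 2812 aligned bases. Of the 8 neuronal markers, 3 were tested. Gap43 fell (-0.90, adjusted p = 0.00102, limma), Stmn2 rose (0.48, adjusted p = 0.00176) and Tubb3 was not called (-0.31), while Rbfox3 was at 0 to 1.60 normalized counts in every library. Rnf40+/+ replicate 1 had 39.4 normalized counts of Snap25 and 115 of Syt1, and without it the log2 fold change of Kif5a was -1.85. The part of neuronal cells in the fall of Kif5a was not tested.

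The kinesin-2 motor that drives anterograde transport in cilia is a heterotrimer of Kif3a, Kif3b or Kif3c and Kifap3. Kif3a had 813, 917 and 798 normalized counts across Rnf40+/+ replicates 1 to 3, against 986, 997 and 1055 across Rnf40-/-. The change came to 0.27 ± 0.08 (SE) on the log2 scale with an adjusted p of 0.0145 (limma). Its call was lost without Rnf40-/- replicate 3 (adjusted p = 0.0601, limma). Kif3b had 1396, 1368 and 1221 normalized counts across Rnf40+/+ replicates 1 to 3, against 1830.3, 1818 and 1731 across Rnf40-/-. The log2 fold change was 0.43 ± 0.07 (SE, adjusted p = 0.000391, limma). For both genes every Rnf40-/- library exceeded every Rnf40+/+ library. Kif3c lay the other way, with all Rnf40-/- libraries (811 to 835) below all Rnf40+/+ libraries (878 to 1001), but its log2 fold change of -0.18 did not pass the threshold (adjusted p = 0.0675, limma). It did so when Rnf40+/+ replicate 2 was left out (-0.22, adjusted p = 0.0461, limma). Kif3c shares 17.1% of its exon bases with 1110002L01Rik on the opposite strand. Kif17, a homodimeric kinesin-2, had a log2 fold change of 0.16 with a wide interval (-0.49 to 0.81).

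Among the kinesin-3 motors, which carry synaptic vesicle precursors, lysosomes and endosomes, Kif1b showed the largest rise of the transport class. Kif1b (mm9, chromosome 4, 148550428 to 148681802, minus strand), whose splice forms carry mitochondria or vesicles, had 3690.2, 3963 and 3546 normalized counts across Rnf40+/+ replicates 1 to 3, against 7246, 6943 and 6445 across Rnf40-/-. This gave a log2 fold change of 0.88 ± 0.07 (SE), with an adjusted p of 1.18e-06 (limma). The Rnf40-/- mean was 1.84 times the Rnf40+/+ mean, and the groups were far apart relative to their spread.

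Kif1c, a fast carrier of dense-core vesicles and integrins with the most reads of all kinesins in Rnf40+/+, had 6996, 7898 and 7169.6 normalized counts across Rnf40+/+ replicates 1 to 3, against 7210.1, 7101 and 8152 across Rnf40-/-. Its fold change was 0.03 ± 0.07 (SE) on the log2 scale (adjusted p = 0.806, limma). These groups overlapped, and the small difference changed sign when Rnf40+/+ replicate 1 (-0.01) or Rnf40-/- replicate 3 (-0.04) was left out. Kif1a, better known from axons, had 3211, 3779 and 3809 normalized counts across Rnf40+/+ replicates 1 to 3, against 4000.2, 3865 and 3879.7 across Rnf40-/-. On the log2 scale the difference was 0.13 ± 0.07 (SE), adjusted p = 0.187 (limma). Its Rnf40-/- libraries were all above its Rnf40+/+ libraries, yet the difference did not pass the threshold.

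Kif13a, which moves recycling endosomes and mannose-6-phosphate receptors, had 871, 902 and 889 normalized counts across Rnf40+/+ replicates 1 to 3, against 1119.6, 989 and 1065 across Rnf40-/-. The change came to 0.25 ± 0.07 (SE) on the log2 scale with an adjusted p of 0.014 (limma). Without Rnf40-/- replicate 1 its adjusted p was 0.0854 (limma). Kif13b, which transports phosphoinositides and other cargo, had 142, 165 and 95.8 normalized counts across Rnf40+/+ replicates 1 to 3, against 204, 235 and 195 across Rnf40-/-. The log2 fold change was 0.68 ± 0.19 (SE, adjusted p = 0.0103, limma). Without Rnf40-/- replicate 2 its adjusted p was 0.0526 (limma). The log2 fold change of Kif13b was 0.455 without Rnf40+/+ replicate 3, its lowest library. Neither gene showed overlap between the groups. Kif16b, which moves early endosomes, was not called (0.10, 95% interval -0.13 to 0.34), and neither were the minus-end directed Kifc2 (-0.11, -0.58 to 0.36) and Kifc3 (0.07, -0.11 to 0.25).

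Genes of the adaptors and of dynein, the motor of the opposite direction, were mixed. Of 41 transport partner genes in the table, 40 were tested, of which 17 rose (42.5%, beside 23.3% of all tested genes), 8 fell (20%, beside 24.1%) and 15 were not called, with a median log2 fold change of 0.14. The largest rises were in Spag9, a scaffold that links kinesin-1 and dynein (1.29, adjusted p = 1.01e-07, limma), and Dync1i1, a dynein intermediate chain (1.00, adjusted p = 0.0136). The largest falls were in the kinesin light chains Klc3 (-0.85, adjusted p = 0.00262) and Klc2 (-0.67, adjusted p = 9.46e-05). The other light chains, Klc1 (-0.15, adjusted p = 0.0551) and Klc4 (-0.01, adjusted p = 0.934), were not called. Kifap3, the partner of the kinesin-2 motors, rose by 0.35 (adjusted p = 0.00291, limma), in the same direction as Kif3a and Kif3b.

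**Figure D3:**
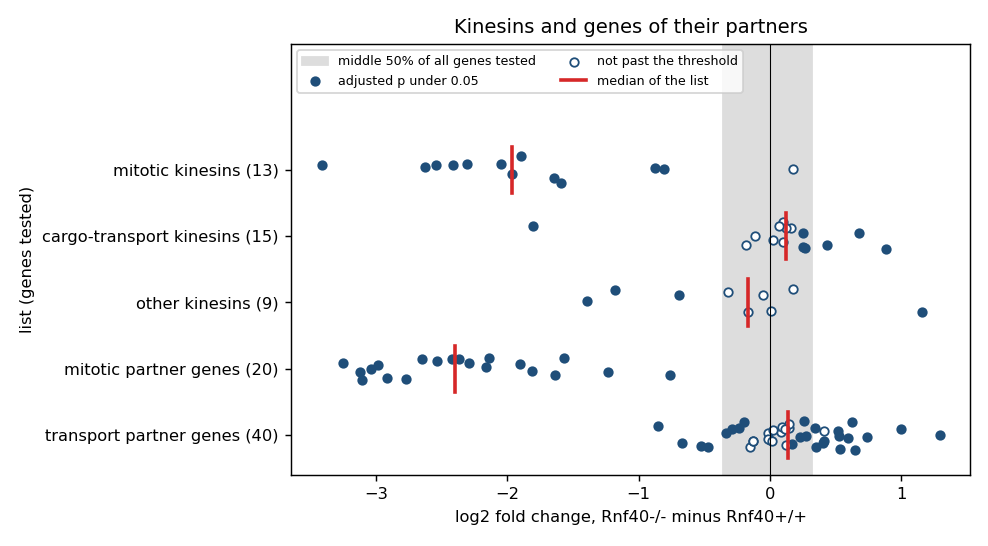
Log2 fold change (Rnf40-/- minus Rnf40+/+, limma) of every tested gene of 5 lists, with the median of each list as a red line and the middle 50% of all 16378 genes in grey. The 20 mitotic partner genes lie to the left of the grey band, as do 12 mitotic kinesins, whereas the transport lists are centred near 0.

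Of the other kinesins, 9 of 13 were tested, of which 3 fell, 1 rose and 5 were not called, beside 24.1% of all tested genes lower and 23.3% higher, with a median log2 fold change of -0.17. Kif12 had no read, and Kif19a, Kif27 and Kif4b had too few reads to be tested. Kif4b held 12 reads in Rnf40+/+ replicate 1 and none elsewhere, and its symbol is listed in RefSeq as a synonym of Kif4-ps, a pseudogene whose transcript is 79.5% identical to that of Kif4 over 3692 aligned bases.

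The kinesin-4 genes Kif21a and Kif21b, whose proteins slow the growth of microtubule ends, moved in opposite directions. Kif21a had 148, 169 and 152 normalized counts across Rnf40+/+ replicates 1 to 3, against 330.4, 391 and 330.5 across Rnf40-/-. This gave a log2 fold change of 1.16 ± 0.12 (SE), with an adjusted p of 1.05e-05 (limma). It was the largest rise of all members. Kif21b had 235, 258 and 346 normalized counts across Rnf40+/+ replicates 1 to 3, against 169, 202 and 144 across Rnf40-/-. Its fold change was -0.69 ± 0.17 (SE) on the log2 scale (adjusted p = 0.00475, limma). Neither gene showed overlap between the groups. The level of Kif21a per kb relative to Kif21b was 0.631 to 0.943 in Rnf40+/+ and 2.78 to 3.29 in Rnf40-/-.

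Both members of the kinesin-11 family, which lack motor activity and act in signalling and cell adhesion, fell. Kif26b had 259, 282 and 484 normalized counts across Rnf40+/+ replicates 1 to 3, against 160.1, 133 and 141 across Rnf40-/-. On the log2 scale the difference was -1.18 ± 0.20 (SE), adjusted p = 0.000474 (limma). Rnf40+/+ replicate 3 was well above the other Rnf40+/+ libraries, and without it the log2 fold change was -0.91. Kif26b shares 11.6% of its exon bases with Gm16564 on the opposite strand. Kif26a had 28.7, 14.3 and 14.4 normalized counts across Rnf40+/+ replicates 1 to 3, against 4.08, 6.26 and 9.44 across Rnf40-/-. The change came to -1.39 ± 0.46 (SE) on the log2 scale with an adjusted p of 0.0261 (limma). It rested on 4 to 24 reads a library, and the call was lost without Rnf40+/+ replicate 1 (adjusted p = 0.11, limma), Rnf40-/- replicate 1 (0.0905) or Rnf40-/- replicate 2 (0.0596).

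Kif2a, a depolymerase related to Kif2c that also acts outside mitosis, had a log2 fold change of 0.006 with a 95% interval of -0.16 to 0.17. In mm9, 17.4% of its exon bases overlap Dimt1 on the opposite strand. Kif24 (-0.05, -0.41 to 0.31), the Hedgehog regulator Kif7 (-0.17, -0.48 to 0.14), Kif9 (0.17, -0.28 to 0.62) and Kif6 (-0.32, -1.53 to 0.89) were not called. The interval of Kif6, with 4 to 12 reads a library, was the widest of all members.

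The criteria of the study were a mean above 15, an unadjusted p under 0.05 and a log2 fold change beyond 1 in either direction. They were applied here to the limma fit, while the study used DESeq, so the calls may differ from those of the study. By them 12 members were lower and 1 was higher, beside 5.7% and 4.25% of all tested genes. The 12 were 10 mitotic kinesins, Kif5a and Kif26b, and the 1 was Kif21a. Kifc1 and Kifc5b fell by too little. Counting instead the members whose libraries did not overlap between genotypes, 17 were lower and 8 higher, beside 28.7% and 27.8% of all tested genes. These comprised 12 lower and 0 higher mitotic kinesins, and 2 lower and 7 higher cargo-transport kinesins.

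The summed kinesin level differed between the genotypes by less than the spread between libraries, while the shares of the mitotic and cargo-transport classes lay apart. Levels were compared between genes as normalized counts per kb of the longest coding transcript, over the 41 members with a length. The highest levels in Rnf40+/+ were those of Kif1c (1100.3 ± 71.6, SD, n = 3) and Kif5b (1068 ± 116), which did not differ beyond their spread, followed by Kif1a (436 ± 40.8), Kif1b (365 ± 20.7) and Kif2a (319 ± 27.0). In Rnf40-/- Kif5b was highest (1269 ± 42.0), then Kif1c (1120.2 ± 86.5), and Kif1b (672 ± 39.5) stood above Kif1a (474 ± 9.0).

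Summed over the 41 members, the level was 5776 ± 176 in Rnf40+/+ and 5766 ± 55.5 in Rnf40-/- (SD, n = 3). The mitotic kinesins made up 20.6% ± 1.99 of this sum in Rnf40+/+ and 8.65% ± 0.69 in Rnf40-/-, a change from 1187 ± 95.9 to 499 ± 44.6 normalized counts per kb. The cargo-transport kinesins made up 70.6% ± 2.08 and 82.7% ± 0.929, a change from 4077 ± 227 to 4770 ± 8.02. The other kinesins stayed at similar shares, 8.86% ± 0.107 and 8.63% ± 0.271. They include Kif2a (319 ± 27.0 per kb in Rnf40+/+ and 319 ± 12.4 in Rnf40-/-), so the shares depend on its placement. Kif5b, Kif1b and Kif1c, the 3 members with the most reads, held 43.8% ± 2.34 of the kinesin sum in Rnf40+/+ and 53.1% ± 0.570 in Rnf40-/-. They include Kif1b, which rose most of the transport class, and leave out Kif1a, which stood above Kif1b per kb in Rnf40+/+. The shares were described and not tested. The values are relative to the size factors, and no change of total RNA per cell can be read from them.

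**Figure D4:**
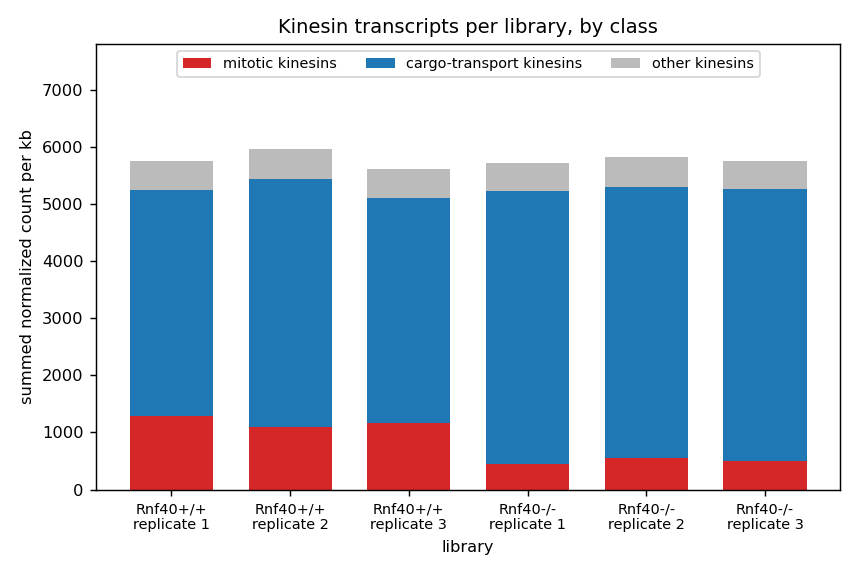
Summed normalized count per kb of the kinesin genes in each library, split into mitotic (red), cargo-transport (blue) and other (grey) members. The bars reach nearly the same height in all 6 libraries, while the red part is 20.6% of the bar on average in Rnf40+/+ and 8.65% in Rnf40-/-.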

How the data were processed

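RNA was measured in 6 libraries of MEFs, 3 per genotype, prepared from total RNA with a strand-specific kit (NEXTflex Rapid Directional). According to the methods of the study and the submitters' processing notes, the authors aligned the sequences against the transcriptome of mm9 and scaled the libraries with DESeq (version 1.14.0). The notes also name Bowtie2 (version 2.1.0). The counting tool, the annotation and the strand setting are not given in the sources used here. Each deposited signal value equals a gene's reads divided by the size factor of its library, and 100% of the positive values of each library were whole reads (tolerance 0.01 reads) after this factor was recovered. Multi-mapped reads and overlapping genes could move counts between relatives such as Kifc1 and Kifc5b.

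Genotypes, taken from the labels, were compared with limma (version 3.58.1), using lmFit and a trended eBayes on log2(normalized count + 1). Genotype was the single covariate, and p-values were adjusted by Benjamini-Hochberg over all 16378 genes kept by filterByExpr of edgeR (version 4.0.16) on the recovered reads. The added 1 understates the change of genes with few reads. With 3 libraries a group, SDs and SEs are imprecise, and depth limits Kif14, Kif26a and Kif6 most. Values in every library are given for each tested mitotic kinesin, for each other tested kinesin with an adjusted p under 0.05, and for the 3 cargo-transport kinesins with the most reads. Kif1a was added after its values were seen, as were the genes that overlap members on the other strand and the single cell markers named. The partner genes named are Cenpe, the light chains, Kifap3 and the 2 largest rises and falls. Members, classes, partner lists and marker lists were chosen with earlier results of these data known, so no test was made of a list. Alternatives were edgeR's quasi-likelihood test with TMM and the Wald test of DESeq2 (version 1.42.0) on the recovered reads, TMM factors, pseudocounts of 0.1 and 10, no filter, a mean above 15, the criteria of the study, a replicate block and each library left out in turn. The fits were also run on simulated reads in which few genes changed, each by a large amount. That run does not cover small changes or a table in which many genes change.

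Positions, exons and coding transcripts are from GENCODE on mm9 (41 of 42 members matched), and promoters from RefSeq on GRCm38.p6. Transcripts were aligned with BLAST. R (version 4.3.3) and Python (version 3.11.15) were used.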

Additional observations from a re-analysis of the deposited data

How the results depend on the processing

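The 12 falls among the mitotic kinesins were counted under the edgeR and DESeq2 tests, TMM factors, both pseudocounts, both filters and each library left out, and the criteria of the study gave 10. The criteria of the study left 1 changed cargo-transport kinesin and 2 changed other kinesins. When single libraries were left out, the changed cargo-transport kinesins numbered 5 to 8, those higher 4 to 6 and those lower 1 to 2, the further one being Kif3c without Rnf40+/+ replicate 2, which gave 2. In these fits the median log2 fold change lay between -2.06 and -1.87 for the mitotic and between 0.11 and 0.17 for the cargo-transport kinesins, and with a pseudocount of 10 the mitotic median was -1.81. Over the 23 called kinesins with Kif18a and Kif1c, and 349 comparisons, 337 kept their direction and side of the threshold, 9 lost the call, 1 gained it and 2 changed direction. Kif1c, never called, ranged from -0.038 (Rnf40-/- replicate 3 left out) to 0.078 (Rnf40+/+ replicate 2 left out), and was also below 0, at -0.01, when Rnf40+/+ replicate 1 was left out. Of the other 12 tested kinesins, none of which was called, 4 changed direction when a library was left out. Without Rnf40+/+ replicate 3, Kif24 was at 0.06, Kif2a at -0.07 and Kifc2 at 0.04, and with Rnf40-/- replicate 2 left out Kif17 was at -0.12, Kif2a at -0.03 and Kifc2 at 0.009. The cause was not tested.

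The deviations of same-numbered libraries of the genotypes had correlations of 0.012, 0.017 and 0.021. Those of libraries with other numbers lay between -0.053 and 0.037. With 3 libraries a group, these values cannot decide whether the numbers pair the samples. With a replicate block, 8217 genes were called in place of 7764, and the kinesin counts were 12 mitotic, 7 cargo-transport and 4 other. Genes with few reads, such as Kif26a and Kif6, could show only large changes at this depth.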
